A study of Gossypium herbaceum with 12 samples.

Results

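The probe sets described here were high in watered roots of Vagad, a drought-tolerant genotype of the cotton *Gossypium herbaceum*, and moved little with drought in RAHS-14, a drought-sensitive genotype. They numbered 68 of the 24029 probe sets measured. Membership was set by 4 criteria on MAS5 signal intensities, with values below 16 set to 16 and taken as log2. The mean of watered Vagad lay at least 1.5 above the mean of watered RAHS-14, the mean of droughted RAHS-14 lay within 1 of the mean of watered RAHS-14, all 3 arrays of watered Vagad lay above all 3 of watered RAHS-14, and the mean intensity in watered Vagad was at least 64. The levels of these 3 groups therefore chose the members and are given as a description, without a test. The array replicates of droughted Vagad had no part in the choice, and on the third of them 20 members kept an intensity at least 2-fold above droughted RAHS-14 while 48 did not. These are called kept and lost members below.

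Root RNA was hybridised to 12 Affymetrix cotton arrays, 3 biological replicates each of droughted Vagad, watered Vagad, droughted RAHS-14 and watered RAHS-14. All plants were about a month old and grown in pots in a glass house, and 3 pots of each genotype were droughted with soil moisture kept below 30%. The paper describes a single period of withheld water while the sample labels describe rare watering in alternate weeks, and which applied is not settled here. No transgene or mutant was involved. Vagad and RAHS-14 are 1 plant line each, so a difference between the genotypes is a difference between these 2 plant lines. Droughted and watered groups were compared within a line.

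Replicates 1 and 2 of droughted Vagad stood apart from the other 10 arrays. Their median intensities were 322 and 345, against 60.8 to 74.2 on the others, and their floored log2 values correlated across probe sets with those of the other arrays at a mean r of 0.61 and 0.46, against 0.977 to 0.983 for the 9 arrays outside that group. Replicate 3 had a median of 70.9, within the range of those 9, and a mean r of 0.973, just below it. The actin control had a ratio of 3' to 5' intensity of 41.3 there, while the 9 arrays of watered Vagad and RAHS-14 gave 12.5 to 20.2. Its part in the results below was not tested. Values of droughted Vagad are given for replicates 1, 2 and 3 in that order, and the comparisons lead with replicate 3, fitted with the other groups on 10 arrays. Of the 16 probe sets annotated as green tissue genes, 1 was a member, and their summed intensity was 6854 on replicate 3, 5731 to 6716 in watered Vagad, 5774 to 6037 in droughted RAHS-14 and 7087 to 7366 in watered RAHS-14. No probe set annotated in the supplementary tables defines root tissue, so the tissue label was not checked further. In such bulk RNA, fewer cells of a type and less RNA per cell cannot be told apart.

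As background, plants differ between genotypes in the set of defence and stress proteins they make without any stress. Osmotin-like proteins, endochitinases, lysozymes and PR1 are pathogenesis-related proteins, secreted or stored in the vacuole and often made in response to wounding, pathogens, ethylene, jasmonate or salt. Ethylene is made from its precursor by 1-aminocyclopropane-1-carboxylate (ACC) oxidase, jasmonates start from lipoxygenases and act through removal of JAZ repressors, and gibberellin 3-beta-dioxygenase makes the active forms of gibberellin. Sesquiterpene synthases, tau glutathione S-transferases and xyloglucan endotransglycosylases, which also appear among the members, act in volatile or defence terpenes, in detoxification and in the rearrangement of cell walls. A gene named after an Arabidopsis, maize, rice or poplar gene is known by its match to that species, as the annotation gives it.

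Primers that the study designed for quantitative PCR exist for 2 of the members, both kept, and these are shown because they are the sequences at hand that identify a member's transcript. The letters are lower case throughout, since no base is singled out.
GraAffx8742.1.S1_at forward: aggcatcccaaatggtagcatat
GraAffx8742.1.S1_at reverse: cgtcgatgaagttccaattcg
GhiAffx12340.1.S1_at forward: atggcataacagcgaagaaaactg
GhiAffx12340.1.S1_at reverse: gttttgggcaatatccgactgaa
The first pair belongs to a probe set annotated as XTR4, a xyloglucan endotransglycosylase, and the second to a probe set annotated as an RNA-directed DNA polymerase in one supplementary table and as a serine/threonine protein kinase in another. The primers are 21 to 24 bases long.

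Under watering, the members' log2 difference of Vagad over RAHS-14 reached 5.36, with a median of 2.11, which is 4.32-fold. The widest differences belonged to Ghi6449.1.A1_at, annotated as a lysozyme in one table and as a metal tolerance protein in another (41.2-fold), the UPF0706 protein GraAffx28538.1.S1_s_at, the RNA-directed DNA polymerase GhiAffx12340.1.S1_at, the tau glutathione S-transferase GhiAffx36353.1.S1_at and the osmotin-like protein Ghi10646.1.S1_s_at. The members mixed faint and bright probe sets, with mean intensities in watered Vagad between 67.2 and 7139. On all 6 arrays of RAHS-14, 34 of the 68 members lay below 64, as did 44.5% of all probe sets but 0.66% of those with a mean of at least 64 in watered Vagad. The rule itself favours low RAHS-14 values, so nothing follows from the contrast between these shares. Of the 34 members, 3 lay at or below the floor of 16 on all 6, so that their fold over RAHS-14 is a lower bound. In the contrast that chose them, limma called 59 members higher for watered Vagad over watered RAHS-14 (0.807% of all probe sets), from which nothing follows. For drought in RAHS-14, which the rule limits, it called 0 higher (2.01% of all) and 0 lower (2.56%), with 14 (14.8%) and 9 (14.1%) at an unadjusted p under 0.05. The SD of the 3 log2 values had a median over the members of 0.183 in watered Vagad, 0.144 in droughted RAHS-14 and 0.157 in watered RAHS-14, but 1.54 in droughted Vagad.

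Members near the limits of the rule show how graded it is. Just inside the limit of 1.5 stood the unannotated Ghi3227.1.A1_at at 1.501 and the glutaredoxin C9, a small redox protein, GhiAffx63229.1.S1_at and the cysteine synthase Ghi5401.1.S1_s_at, both at 1.52. Just outside, with the other criteria met, stood another glutaredoxin C9 probe set, GhiAffx62078.1.S1_at, at 1.48, an arginine/diaminopimelate/ornithine decarboxylase, Ghi9106.3.S1_s_at, at 1.48 and the unannotated GhiAffx28297.1.S1_at at 1.47. Of the 106 probe sets that met the criteria on watered Vagad, 25 were left out because droughted RAHS-14 was at least 1 above watered RAHS-14 and 13 because it was at least 1 below. The pollen allergen Ghi6465.2.S1_at was the member closest to the drought limit, with droughted RAHS-14 0.998 above watered RAHS-14 on the log2 scale.

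**Figure D1:**
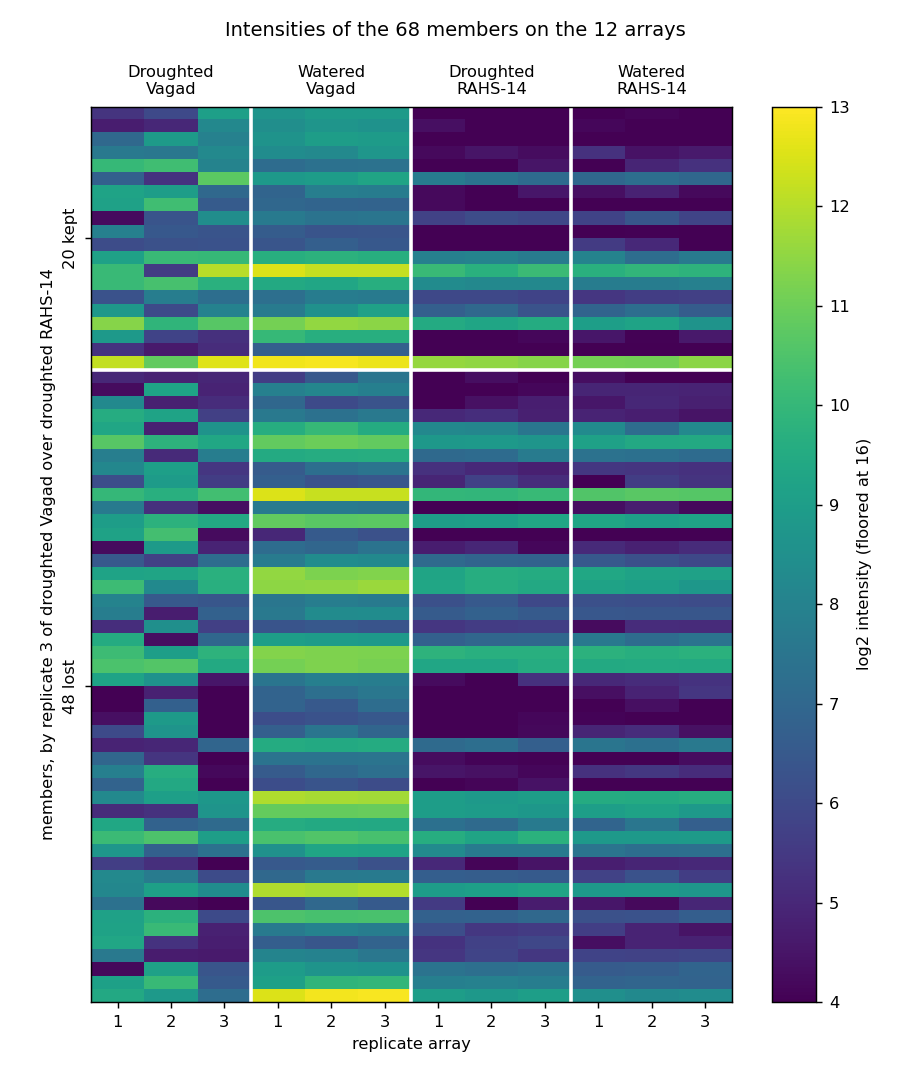
Log2 intensities (floored at 16, colour) of the 68 members, 1 row each, on the 12 arrays, grouped as droughted Vagad, watered Vagad, droughted RAHS-14 and watered RAHS-14. Rows are ordered by the difference of replicate 3 of droughted Vagad from droughted RAHS-14, and the white line parts the 20 kept from the 48 lost members. Watered Vagad exceeds watered RAHS-14 in every row by the rule. In rows over the line, replicate 3 of droughted Vagad is at least 2-fold above the mean of droughted RAHS-14. In rows under it, replicate 3 is within 2-fold of that mean for 45 members and lower for 3.

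On replicate 3 of droughted Vagad, 20 of the 68 members (29.4%) lay at least 2-fold above the mean of droughted RAHS-14, against 3.27% of all probe sets and 2.93% of those with a mean of at least 64 in watered Vagad. Another 45 members lay within 2-fold of droughted RAHS-14, as did 92.6% of all probe sets, and 3 lay at least 2-fold below it, against 4.11% of all. The members' median log2 difference from droughted RAHS-14 was 0.26, where the median over all probe sets was 0. In the 10-array limma fit, 19 members were called higher on this replicate than in droughted RAHS-14, against 1.96% of all probe sets, and 3 were called lower, against 2.33%. A call needs the 2-fold difference that defines a kept member, so no lost member could be called higher. The kept member that was not called was the unannotated GhiAffx28079.1.S1_at (log2 difference 1.30 ± 0.55, SE, adjusted p = 0.18). Because droughted Vagad rests here on 1 array, that array was taken to vary like the other groups. The droughted RAHS-14 arrays entered the rule through the limit on drought change, while replicate 3 of droughted Vagad did not enter it.

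Against watered Vagad, the same replicate was at least 2-fold lower in 47 of the 68 members (69.1%, against 3.97% of all probe sets and 6.62% of those with a mean of at least 64 in watered Vagad). It was at least 8-fold lower in 14 (20.6%, against 0.146% and 0.292%). The limma fit called 43 members lower, against 2.8% of all probe sets, and 1 higher, against 3.19%. The members were chosen for high values in watered Vagad, which lowers every such difference by an unknown amount, so these counts describe the members and do not test drought. The 43 comprised 41 lost and 2 kept members, a division that the split on the same array largely fixes. The 2 were the lysozyme probe set Ghi6449.1.A1_at and the spotted leaf protein Gra398.2.S1_s_at. The replicate stood below all 3 arrays of watered Vagad in all 48 lost members and in 12 of the kept members, together 88.2%, against 23.4% of all probe sets and 40.2% of those with a mean of at least 64.

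**Figure D2:**
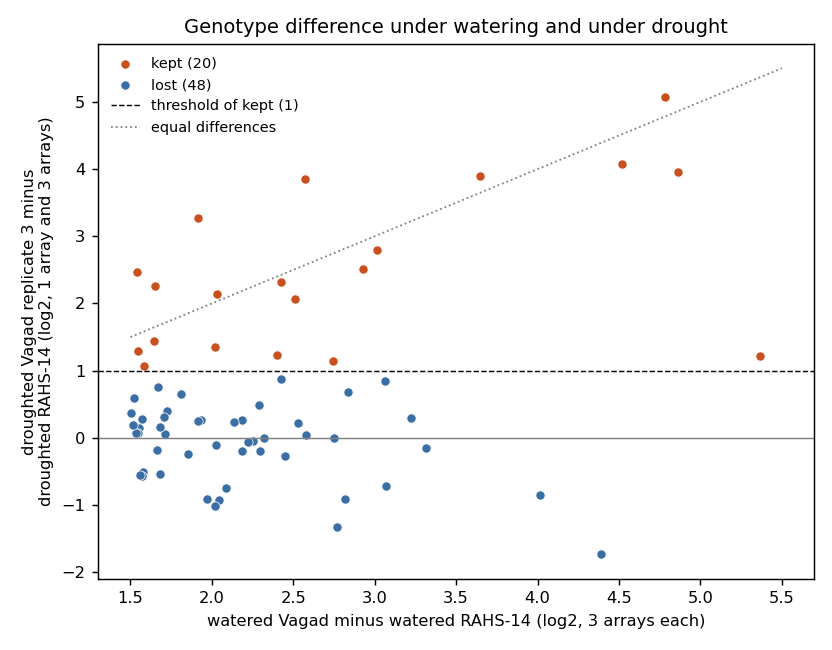
Each point is a member: the horizontal axis gives watered Vagad minus watered RAHS-14 (log2, means of 3 arrays), the quantity used to choose it, and the vertical axis gives replicate 3 of droughted Vagad minus the mean of droughted RAHS-14 (log2). The 20 kept members lie above the dashed line at 1, several of them near the dotted line where both differences are equal, and the 48 lost members lie around 0, with the osmotin-like protein lowest at -1.74.

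The widest kept difference was that of GhiAffx12340.1.S1_at. It had intensities of 41.1, 63.3 and 539 in droughted Vagad and 408, 475 and 479 in watered Vagad, against 0.8, 1.21 and 1.18 in droughted RAHS-14 and 8.11, 17.5 and 10.6 in watered RAHS-14. All 6 Vagad arrays lay above all 6 RAHS-14 arrays. The rule required this of every member under watering. Under drought it held for 16.3% of all probe sets and 11.7% of those with a mean of at least 64 in watered Vagad. The 41.1 and 63.3 on replicates 1 and 2 lay below the medians of those arrays, 322 and 345. Few probe sets were at the floor on these 2 arrays, 2.16% and 0.246%, against 24.7% on replicate 3. Replicate 3 of droughted Vagad was at least 33.7-fold above droughted RAHS-14 (log2 difference 5.08). The droughted RAHS-14 arrays were all raised to the floor, so they added no spread. RNA-directed DNA polymerases are the reverse transcriptases of retroelements, and a protein kinase would be a different gene, so the identity of this transcript is not settled by the annotation. Of the other 3 probe sets annotated as retroelement or transposase, GhiAffx19899.1.S1_s_at was also called higher on replicate 3, at 36.2 against a mean of 11.3 in droughted RAHS-14, GhiAffx34006.1.S1_at was called lower, at 23.9 against a mean of 1272, and the remaining one lay under the floor on replicate 3 and in the mean of droughted RAHS-14.

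The tau glutathione S-transferase GhiAffx36353.1.S1_at, an enzyme that joins glutathione to reactive compounds, was kept as well. Its intensities were 26.7, 32.1 and 291 in droughted Vagad and 348, 413 and 381 in watered Vagad, against 20.5, 8.2 and 12.9 in droughted RAHS-14 and 17.7, 15.9 and 10.8 in watered RAHS-14. The log2 difference of replicate 3 from droughted RAHS-14 was 4.07 ± 0.16 (SE, adjusted p = 7.6e-06). A second probe set annotated with the same Arabidopsis gene, GhiAffx33673.1.S1_s_at, was brighter and was lost. It had 1020, 825 and 1249 in droughted Vagad and 5961, 4803 and 4815 in watered Vagad, against 985, 972 and 1084 in droughted RAHS-14 and 1488, 1673 and 1594 in watered RAHS-14. On replicate 3 it differed from droughted RAHS-14 by 0.30 ± 0.14 (adjusted p = 0.22) and was called lower than watered Vagad by 2.05 ± 0.14 on the log2 scale (adjusted p = 0.00012).

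GraAffx8742.1.S1_at, the XTR4 probe set whose enzyme cuts and rejoins xyloglucan in the cell wall, had 1042, 1205 and 261 in droughted Vagad and 147, 162 and 166 in watered Vagad, against 15.1, 10.9 and 22.6 in droughted RAHS-14 and 15.7, 30.4 and 38.5 in watered RAHS-14. Its Vagad and RAHS-14 arrays did not overlap under watering, by the rule, or under drought. Each of the 3 droughted Vagad arrays lay above each watered one, though replicates 1 and 2 had medians above those of all other arrays. Replicate 3 was called higher than droughted RAHS-14 (log2 difference 3.86 ± 0.46, adjusted p = 0.0026) and not called against watered Vagad (0.72 ± 0.46, adjusted p = 0.38). It was 1 of 3 members at least 2-fold above droughted RAHS-14 on every one of the 3 droughted Vagad arrays after each array was centred on its median. The others were the terpene synthase GhiAffx52370.1.S1_at and GhiAffx22819.1.S1_at, annotated as an unknown protein in one table and a serine/threonine protein kinase in another. The share of all probe sets with this trait was not counted. Taken singly, centred replicates 1, 2 and 3 gave 20.3%, 23.1% and 3.51% of all probe sets. Among those with a mean of at least 64 in watered Vagad they gave 1.93%, 2.47% and 3.07%.

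Among the other kept members with wide differences, the UPF0706 protein GraAffx28538.1.S1_s_at, whose role is not known, had 132, 483 and 249 in droughted Vagad and 396, 515 and 496 in watered Vagad, while no RAHS-14 array exceeded 10.8. Replicate 3 was at least 15.6-fold above droughted RAHS-14 (log2 difference 3.96) and 0.90 below watered Vagad. All RAHS-14 values were raised to the floor, so they added no spread. Ghi1825.1.S1_at, annotated as the cytoskeletal protein actin-7 of maize, had 200, 191 and 299 in droughted Vagad and 332, 302 and 422 in watered Vagad, against 18.6, 22.6 and 19.6 in droughted RAHS-14 and 39.3, 21.7 and 25.2 in watered RAHS-14 (replicate 3 over droughted RAHS-14 3.89 ± 0.34, adjusted p = 0.00057). The unannotated Ghi1639.1.S1_at was the member called higher on replicate 3 than in watered Vagad. It had 109, 39.9 and 1687 in droughted Vagad and 456, 499 and 606 in watered Vagad, against 218, 172 and 141 in droughted RAHS-14 and 130, 153 and 130 in watered RAHS-14, so that its droughted Vagad arrays fell on both sides of every other group. Its log2 difference on replicate 3 was 3.28 ± 0.26 from droughted RAHS-14 (adjusted p = 0.00032) and 1.71 ± 0.26 from watered Vagad (adjusted p = 0.0056).

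The remaining kept members with an annotated role had smaller differences. The MYB transcription factor GHMYB36 (GhiAffx15635.1.S1_at) had 19.1, 81 and 339 in droughted Vagad and 211, 174 and 182 in watered Vagad, against 55.3, 68 and 60.8 in droughted RAHS-14 and 56.2, 84.5 and 57.1 in watered RAHS-14 (2.47 ± 0.25, adjusted p = 0.0012). The cysteine protease RD19 (Ghi8386.1.S1_x_at), first known in Arabidopsis as responsive to dehydration, was the brightest member. It had 4613, 1835 and 5991 in droughted Vagad and 7080, 7497 and 6840 in watered Vagad, against 3086, 2897 and 2632 in droughted RAHS-14 and 2213, 2191 and 2795 in watered RAHS-14, and it lay closest to the limit of the kept members (1.06 ± 0.15, adjusted p = 0.0056). The metal ion binding protein GhiAffx1589.31.S1_at had 1092, 47.6 and 4239 in droughted Vagad and a mean of 5164 ± 692 in watered Vagad (SD, n = 3), against 1021 ± 163 in droughted RAHS-14 and 901 ± 65.5 in watered RAHS-14 (2.07 ± 0.21, adjusted p = 0.0011). The spotted leaf protein Gra398.2.S1_s_at, of a family of ubiquitin ligases known in rice, had 40.2, 25.3 and 35.5 in droughted Vagad and 106, 109 and 106 in watered Vagad, with all RAHS-14 arrays under the floor. GhiAffx22819.1.S1_at had 562, 1224 and 95.9 in droughted Vagad and 128, 119 and 118 in watered Vagad, and no RAHS-14 array exceeded 18.7. The remaining 5 kept members had no informative annotation. The unknown protein GhiAffx45715.1.S1_at had 245, 88.7 and 80.1 in droughted Vagad and 97.9, 81.1 and 82.6 in watered Vagad, while no RAHS-14 array exceeded 16.6. GhiAffx47892.1.S1_at had 575, 1085 and 1053 in droughted Vagad and 799, 874 and 793 in watered Vagad, against 214 to 261 in droughted RAHS-14 and 150 to 258 in watered RAHS-14. For both, all 6 Vagad arrays lay above all 6 of RAHS-14, under watering by the rule. The values of GhiAffx45715.1.S1_at on replicates 1 and 2 lay below the medians of those arrays, 322 and 345. Ghi3299.1.A1_s_at, Ghi6309.3.A1_at and GhiAffx28079.1.S1_at had 829, 76.3 and 253 on replicate 3, against means of 305, 3.91 and 105 in droughted RAHS-14. Replicate 3 was above every droughted RAHS-14 array in 37 members, all 20 kept ones among them, against 32.1% of all probe sets.

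**Figure D3:**
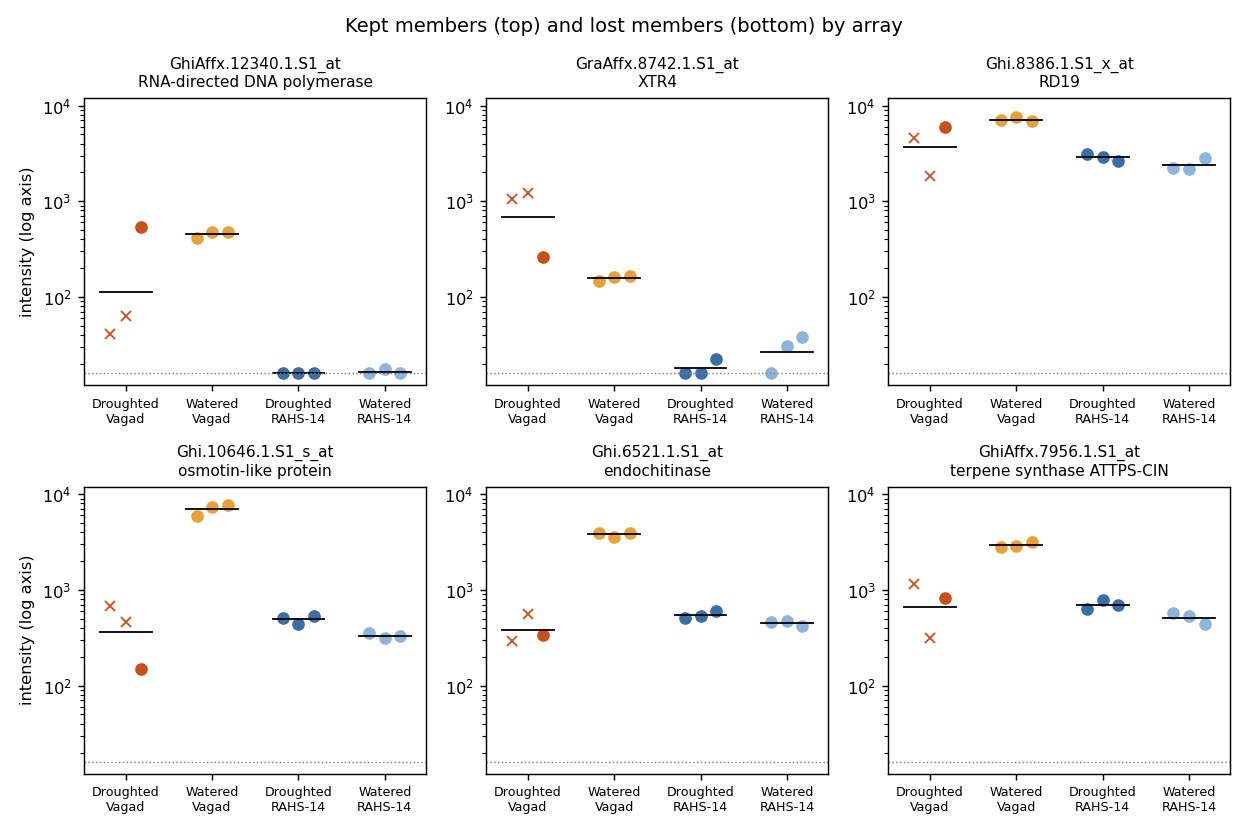
Intensities (log axis, floored at 16, dotted line) of 3 kept members in the top row and 3 lost members in the bottom row. Points are single arrays of droughted Vagad, watered Vagad, droughted RAHS-14 and watered RAHS-14, crosses are replicates 1 and 2 of droughted Vagad, and bars are means of the log2 values; for the osmotin-like protein replicate 3 of droughted Vagad reads 149 while watered Vagad reads 5966 to 7647.

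Of 17 probe sets annotated as pathogenesis-related proteins 6 were members, 5 of them lost, and on replicate 3 all 6 were called lower than watered Vagad, as were 63.2% of all members and 2.8% of all probe sets, with log2 differences between -5.55 and -3.08 and a median of -3.37, where the median over all 17 was -3.08 and over all probe sets 0. The osmotin-like protein Ghi10646.1.S1_s_at had 687, 459 and 149 in droughted Vagad and 5966, 7429 and 7647 in watered Vagad, against 512, 444 and 534 in droughted RAHS-14 and 355, 311 and 334 in watered RAHS-14. Watered Vagad was thus above every other array, and replicate 3 was below all 6 RAHS-14 arrays. It was called lower than droughted RAHS-14 (-1.74 ± 0.17, adjusted p = 0.00089) and lower than watered Vagad (-5.55 ± 0.17, adjusted p = 1.3e-06).

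The endochitinase Ghi6521.1.S1_at, an enzyme that cuts the chitin of fungal walls, had 291, 561 and 334 in droughted Vagad and 3893, 3589 and 3955 in watered Vagad, against 505, 540 and 604 in droughted RAHS-14 and 464, 476 and 421 in watered RAHS-14. All 3 droughted Vagad arrays were below all watered ones, and replicate 3 was 0.71 ± 0.11 below droughted RAHS-14 on the log2 scale, under the 2-fold limit of a call (adjusted p = 0.0082). The wound-induced protein WIN2 (GhiAffx25472.1.A1_s_at) had 299, 539 and 430 in droughted Vagad and 3868, 3595 and 3479 in watered Vagad, against 514, 454 and 510 in droughted RAHS-14 and 735, 720 and 776 in watered RAHS-14. Droughted Vagad was at RAHS-14 levels or below on all 3 arrays for both proteins. The pollen allergen Ghi6465.2.S1_at, a member of a family that includes the PR-10 proteins, had 549, 1076 and 94.7 in droughted Vagad and 559, 953 and 1006 in watered Vagad, against 239, 251 and 224 in droughted RAHS-14 and 118, 123 and 116 in watered RAHS-14. It was called lower than droughted RAHS-14 on replicate 3 (-1.33 ± 0.31, adjusted p = 0.033), whereas replicates 1 and 2 lay above droughted RAHS-14.

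PR1 (Ghi8071.1.S1_at), a marker of salicylate-dependent defence in other plants, was faint: 8.96, 28.2 and 11.0 in droughted Vagad and 116, 155 and 189 in watered Vagad, with every droughted RAHS-14 array under the floor and 20.8, 30.1 and 43.4 in watered RAHS-14. The lysozyme probe set Ghi6449.1.A1_at counted as kept although its replicate 3 stood far below watered Vagad, as in the other 5. It had 456, 56.1 and 38.4 in droughted Vagad and 1052, 793 and 796 in watered Vagad, against 15.1, 9.99 and 17.8 in droughted RAHS-14 and 23.3, 16.5 and 24.7 in watered RAHS-14. Replicate 3 was 2.32-fold above droughted RAHS-14, whose values lay about the floor, and 22.7-fold below watered Vagad.

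Of 18 probe sets annotated with ethylene, jasmonate or gibberellin 6 were members and 1 of them was kept, and on replicate 3 the limma fit called 5 of the 6 lower than watered Vagad and 11 of all 18. Over all members 48 of 68 were lost and 43 called lower, so these counts were near those of the module. The kept one was the ACC oxidase Ghi6918.2.A1_at, with 2633, 955 and 1629 in droughted Vagad and 2220, 2952 and 2788 in watered Vagad, against 718, 625 and 740 in droughted RAHS-14 and 524, 595 and 398 in watered RAHS-14. Every Vagad array was above every RAHS-14 array, under watering by the rule. Replicate 3 was 1.23 above droughted RAHS-14 on the log2 scale. The other ACC oxidase member, Ghi7070.1.S1_s_at, had 231, 33.5 and 223 in droughted Vagad and 729, 764 and 789 in watered Vagad, against 134, 142 and 213 in droughted RAHS-14 and 167, 159 and 142 in watered RAHS-14. Its replicate 3 was just above droughted RAHS-14 (0.49 ± 0.25, adjusted p = 0.27). The difference between the 2 probe sets was not tested.

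The jasmonate repressor JAZ3 (GhiAffx42068.1.S1_at) had 34.9, 39.3 and 406 in droughted Vagad and 1891, 1882 and 1903 in watered Vagad, against 511, 492 and 435 in droughted RAHS-14 and 529, 582 and 465 in watered RAHS-14, so that all 3 droughted Vagad arrays fell below all of RAHS-14. The lipoxygenase LOX1 (Ghi234.1.S1_s_at) had 515, 886 and 686 in droughted Vagad and 1847, 1649 and 1702 in watered Vagad, while all 6 RAHS-14 arrays lay between 516 and 640. LOX1 was counted here by its annotation, and whether this lipoxygenase acts in jasmonate synthesis was not tested. Both gibberellin 3-beta-dioxygenase probe sets, Ghi7938.1.S1_at and Ghi9268.1.S1_x_at, were split among the droughted Vagad arrays. Ghi7938.1.S1_at had 586, 1084 and 28.4 in droughted Vagad and 205, 256 and 227 in watered Vagad, against 71.6, 44.2 and 47.6 in droughted RAHS-14 and 51.2, 30.0 and 22.3 in watered RAHS-14. On replicate 3 it was called lower than watered Vagad (-3.01 ± 0.47, adjusted p = 0.0064), and replicates 1 and 2 lay above all 9 arrays of the other groups. Ghi9268.1.S1_x_at had 237, 776 and 18.1 in droughted Vagad and 96.5, 129 and 155 in watered Vagad, against 18 to 22.6 in droughted RAHS-14 and 35.3 to 43.7 in watered RAHS-14. Its replicates 1 and 2 too lay above all 9 arrays of the other groups, and its replicate 3 below watered Vagad. In RAHS-14 its droughted arrays lay below the watered ones, while the mean of Ghi7938.1.S1_at was higher when droughted.

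Terpene synthases were split between kept and lost. Of 6 probe sets annotated with terpenoid enzymes 3 were members. The TPS21-like GhiAffx52370.1.S1_at, named for the Arabidopsis synthase of caryophyllene and annotated as a hydroxyproline-rich glycoprotein in another table, was kept. It had 593, 517 and 132 in droughted Vagad and 119, 231 and 218 in watered Vagad. RAHS-14 had 18.6, 15.5 and 23.2 when droughted and 20.8, 28.9 and 18.8 when watered. The genotypes did not overlap under either condition, under watering by the rule. Replicate 3 was 2.79 above droughted RAHS-14 on the log2 scale. The other TPS21-like probe set, GhiAffx49963.1.S1_s_at, was lost, with 20.7, 476 and 0.809 in droughted Vagad and 69.0, 76.4 and 89.4 in watered Vagad, and no RAHS-14 array above 17.9. ATTPS-CIN (GhiAffx7956.1.S1_at), named for an Arabidopsis cineole synthase, was bright and lost, with 1164, 312 and 817 in droughted Vagad and 2833, 2886 and 3188 in watered Vagad, against 635, 779 and 693 in droughted RAHS-14 and 577, 539 and 436 in watered RAHS-14. On replicate 3 it was 0.22 ± 0.17 above droughted RAHS-14 (adjusted p = 0.51) and called 1.86 ± 0.17 lower than watered Vagad on the log2 scale (adjusted p = 0.00067).

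**Figure D4:**
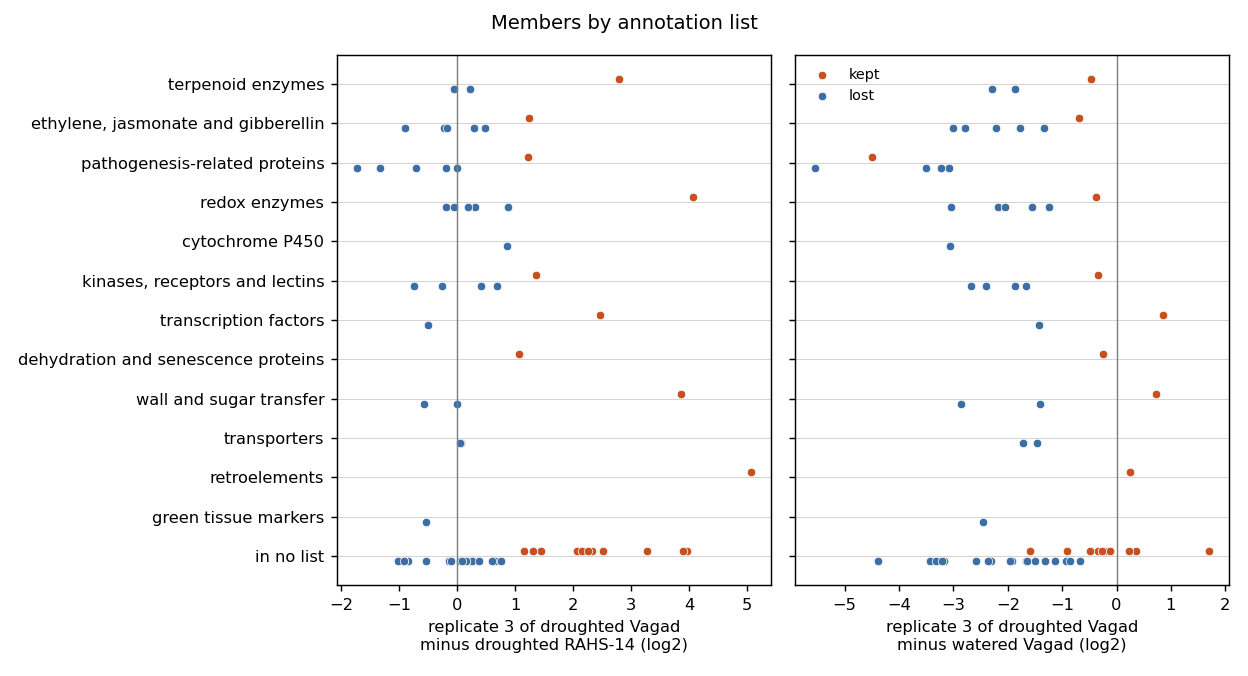
Members by annotation list, kept above and lost below each line, with members of no list at the bottom. The left panel gives replicate 3 of droughted Vagad minus droughted RAHS-14 and the right panel the same array minus watered Vagad (log2); the 6 pathogenesis-related members lie between -5.55 and -3.08 in the right panel.

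Redox and detoxification genes held 6 members among 35 probe sets, 1 of them kept, the glutathione S-transferase described above. The lost peroxidase Ghi6564.1.S1_at had 64.8, 404 and 13.9 in droughted Vagad and 106, 179 and 123 in watered Vagad, with all of droughted RAHS-14 at or under 18.2 and 21.1 to 35.6 in watered RAHS-14. The fiber quinone-oxidoreductase Ghi9584.4.S1_at, at 32.3, 28.1 and 31.5 in droughted Vagad and 49.6, 89.98 and 179 in watered Vagad, stood just under the limit of the kept members, and polyphenol oxidase GhiAffx5296.1.S1_at was under the floor on replicate 3. Glutaredoxin C9 (GhiAffx63229.1.S1_at) had 261, 91.1 and 85.2 in droughted Vagad and 184, 223 and 203 in watered Vagad, against 62.2 to 91.8 in droughted RAHS-14 and 67.6 to 74.3 in watered RAHS-14. The lost cytochrome P450 Ghi5304.1.A1_at had 19.1, 596 and 30.1 in droughted Vagad and 243, 277 and 236 in watered Vagad, against 15.8, 16.3 and 17.8 in droughted RAHS-14 and 30.4, 30.2 and 29.7 in watered RAHS-14. Its replicate 3 was 0.85 ± 0.10 above droughted RAHS-14 (adjusted p = 0.0021), under the 2-fold limit, at about the level of watered RAHS-14.

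Of all annotated probe sets 5.49% were members. Of 64 whose annotation mentions a kinase, lectin or channel receptor, a few of them proteins associated with a kinase, 5 were members (7.81%). The kept one was Ghi3773.1.A1_at, a serine-threonine protein kinase that another table calls a dehydration responsive element-binding protein (76.7, 223 and 152 in droughted Vagad and 158, 220 and 209 in watered Vagad, against 55.5 to 61.5 in droughted RAHS-14 and 42.5 to 52.1 in watered RAHS-14). The receptor kinase Lecrk (Ghi8360.1.A1_at), a lectin-domain kinase, was lost with 284, 543 and 43.3 in droughted Vagad and 95.4, 154 and 176 in watered Vagad, against 27.7 to 38.7 in droughted RAHS-14 and 39.2 to 43.7 in watered RAHS-14. The lost kinases Ghi490.1.S1_s_at and Ghi3370.1.A1_at and the mannose-binding lectin Gra1498.1.S1_x_at stood on replicate 3 at 51.6, 138 and 15.4, against 163 to 201, 693 to 766 and 85.2 to 132 in watered Vagad. Of 49 probe sets for transcription factors 2 were members (4.08%), the kept GHMYB36 among them. WRKY75 (GhiAffx61976.1.S1_at), a regulator of phosphate starvation and senescence in Arabidopsis, was lost, with 1121, 1417 and 523 in droughted Vagad and 1367, 1493 and 1340 in watered Vagad, against 784, 608 and 869 in droughted RAHS-14 and 471, 453 and 483 in watered RAHS-14. Replicates 1 and 2 lay near watered Vagad here, and replicate 3 lay between the droughted and the watered RAHS-14 arrays.

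Of 36 probe sets for cell wall and sugar transfer 3 were members, the kept XTR4 and 2 lost glycosyltransferases, enzymes that attach sugars to small molecules. UGT75B2 (GhiAffx16447.1.A1_at) and Ghi6822.1.A1_s_at were at 0.54 and 66.5 on replicate 3, against 91.0 to 148 and 132 to 210 in watered Vagad. Of 34 probe sets for transporters 2 were members, both amino acid transporters, and both stood on replicate 3 at RAHS-14 levels. GraAffx12807.1.A1_s_at had 1151, 530 and 894 in droughted Vagad and 2567, 2452 and 2377 in watered Vagad, against 913, 825 and 825 in droughted RAHS-14 and 879, 795 and 857 in watered RAHS-14, and Ghi1903.1.S1_at had 1405, 1526 and 707 in droughted Vagad and 2232, 2457 and 2290 in watered Vagad, against 647, 646 and 761 in droughted RAHS-14 and 699, 723 and 702 in watered RAHS-14. Threonine aldolase THA1 (GraAffx32086.1.S1_s_at), which breaks threonine down to glycine, had 601, 618 and 831 in droughted Vagad and 3003, 2412 and 2523 in watered Vagad, while RAHS-14 ranged between 563 and 777. The cysteine synthases Ghi5401.1.S1_s_at and Gra911.1.A1_s_at were at 661 and 390 on replicate 3, against 1810 to 2000 and 749 to 1051 in watered Vagad and 411 to 455 and 181 to 298 in droughted RAHS-14. The green tissue member, Rubisco activase GhiAffx23482.1.S1_at, was faint throughout, with 50.7, 36.8 and 5.42 in droughted Vagad and 91.6, 99.5 and 75.2 in watered Vagad, against 17.4 to 32.9 in droughted RAHS-14 and 26.8 to 32.5 in watered RAHS-14.

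Several lost members have no informative annotation. GhiAffx43814.1.S1_at, an unknown protein, had 563, 878 and 65.3 in droughted Vagad and 1424, 1319 and 1358 in watered Vagad, against 112, 113 and 130 in droughted RAHS-14 and 76.1, 76.6 and 104 in watered RAHS-14. Watered Vagad was above all other arrays, and replicate 3 was called 4.39 ± 0.19 lower on the log2 scale (adjusted p = 1e-05). Ghi5772.1.S1_a_at, a hypothetical protein that the paper's text relates to expansins, was under the floor on replicate 3 and at 170, 172 and 175 in watered Vagad, and Ghi8492.1.S1_s_at was at 20.0 on replicate 3 and at 205, 202 and 191 in watered Vagad. Gra1930.1.A1_s_at, called lower than droughted RAHS-14 on replicate 3 (-1.02 ± 0.17, adjusted p = 0.011), had 18.5, 565 and 82.6 in droughted Vagad and 501, 403 and 386 in watered Vagad, against 172, 157 and 172 in droughted RAHS-14 and 97.0, 100 and 120 in watered RAHS-14. The patatin-like lipase GhiAffx19570.1.S1_at and the tumor-related protein GhiAffx61409.1.S1_at stood at 25.4 and 26.8 on replicate 3, against 188 to 268 and 85.9 to 116 in watered Vagad and 42.9 to 58.1 and 39.5 to 60.6 in droughted RAHS-14. The lipase GhiAffx21205.1.S1_at was at 30, 31.6 and 122 in droughted Vagad and 750, 713 and 738 in watered Vagad, against 106 to 152 in droughted RAHS-14 and 161 to 201 in watered RAHS-14, and the ankyrin repeat protein Ghi7943.1.S1_at had 577, 1262 and 19.3 in droughted Vagad and 32.4, 93.5 and 75.6 in watered Vagad, with all RAHS-14 arrays under the floor, so that replicates 1 and 2 lay above and replicate 3 below all of watered Vagad. GbaAffx211.1.S1_at, unannotated, was at 594, 380 and 23.6 in droughted Vagad and 182, 235 and 226 in watered Vagad, against 8.95 to 39.4 in droughted RAHS-14 and 32.5 to 40.2 in watered RAHS-14. The other 8 lost members, Ghi3227.1.A1_at, Ghi3804.1.A1_at, Ghi3938.2.S1_s_at, Ghi6500.1.S1_at, GhiAffx12869.1.S1_at, GhiAffx22793.1.S1_s_at, GhiAffx60976.1.S1_at and GraAffx1698.1.S1_at, have no annotation or one that names no function, and they differed on replicate 3 by -0.53 to 0.76 from droughted RAHS-14 and by -2.31 to -0.66 from watered Vagad. In all, 58 of the 68 members had an annotation, 51 of them naming a gene or family, and 37 belonged to at least 1 of the lists above, which hold probe sets that the study itself selected on these arrays.

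Other probe sets can share a transcript cluster with a member, as far as the shared number in the name shows it. The 68 members came from 68 clusters, and 18 of these held 84 further probe sets. Most of them, 64, were in GhiAffx1589, whose few annotated probe sets name unrelated proteins. Of the other 20, 4 had a mean of at least 64 in watered Vagad, and 1 of these 4, the cytochrome P450 probe set Ghi5304.2.A1_x_at, had a log2 difference of at least 1.5 under watering. Its replicate 3 was at 19.4, against a mean of 335 in watered Vagad, 22.4 in droughted RAHS-14 and 51.1 in watered RAHS-14. The bright probe sets Ghi6918.1.S1_x_at, of the ACC oxidase cluster, and Ghi9584.1.S1_x_at, of the quinone-oxidoreductase cluster, had means of 11464 and 12394 in watered Vagad and 8092 and 11104 in watered RAHS-14, and Ghi6309.1.S1_s_at had 8658 and 8746. By name, 45 of the 68 members (66.2%) were probe sets with the plain suffix for a unique target, against 53% of all probe sets, and 22 carried the suffixes for probes shared within a family or with other sequences, so for those the signal of near-identical transcripts cannot be told apart.

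The comparisons with all 3 droughted Vagad arrays made no calls. Against droughted RAHS-14 limma on 6 arrays called 0 probe sets higher (0.0%) and 0 lower (0.0%), and against watered Vagad again 0 higher (0.0%) and 0 lower (0.0%), at an adjusted p under 0.05 and 2-fold. On data simulated with each group's spread, both fits recovered 0% of log2 changes of 1 and 14.9% of those of 2. Of log2 changes of 3 they recovered 40.9% and 33.3%, and they made 63 and 35 false calls. The simulated arrays lacked the shared shift of replicates 1 and 2, so these rates need not hold for the data. The lack of calls therefore says little about whether the members changed. Without replicate 3, which leaves replicates 1 and 2, 24 members (35.3%) were called higher than droughted RAHS-14, against 29.6% of all probe sets, and 2 lower, against 9.02%. In that setting 17 (25%) were called lower than watered Vagad, against 8.36%, and 6 higher, against 30.2%. At an unadjusted p under 0.05, 14 members were higher than droughted RAHS-14 (20.6%, against 8.34% of all probe sets) and 1 was lower (against 2.61%). At the same p, 20 were lower than watered Vagad (29.4%, against 2.41%) and 1 was higher (against 10.9%). All 3 droughted Vagad arrays lay above all 3 of droughted RAHS-14 in 23 members (33.8%, against 16.3% of all probe sets and 11.7% of those with a mean of at least 64 in watered Vagad), 15 of them kept and 8 lost. All 3 lay below all 3 of watered Vagad in 28 members (41.2%, against 9.16% and 18.2%), 7 of them kept and 21 lost. After each array was centred on its median, 14 members lay at least 2-fold above droughted RAHS-14 on replicate 1 and 16 on replicate 2, against 20.3% and 23.1% of all probe sets and 1.93% and 2.47% of those with a mean of at least 64 in watered Vagad. Of the 20 kept members, 6 did so on replicate 1 and 4 on replicate 2.

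In the opposite direction, 82 probe sets met the mirrored rule, low in watered Vagad and within the drought limit in RAHS-14. On replicate 3 of droughted Vagad 41 of them (50%) lay at least 2-fold below droughted RAHS-14, against 4.11% of all probe sets. Another 4 lay at least 2-fold above, against 3.27% of all. Their median log2 difference from droughted RAHS-14 was -0.97 and from watered Vagad 0.61, beside 0.26 and -1.66 for the members described here. Both sets were chosen on the same watered arrays, and the difference between them was not tested.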

How the data were processed

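The 4 groups of roots had 3 Affymetrix cotton arrays each, 12 in all. The deposited intensities were linear MAS5 signals, scaled by the authors with 1 factor per array and otherwise unnormalized. Of 24132 probe sets, 103 controls were left out. Intensities under 16 were raised to 16 and log2 was taken, while the intensities printed are as deposited. Precision is limited by the number of arrays, and p-values measure the spread between arrays of a group. For replicate 3 of droughted Vagad, alone in its group, they rest on the spread in the other groups. Values raised to the floor add no spread.

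Differences were tested over all 24029 probe sets with limma 3.58.1 (R 4.3.3, lmFit and eBayes). A call needed an adjusted p (Benjamini-Hochberg) under 0.05 and a 2-fold difference. Tests of replicate 3 of droughted Vagad used 10 arrays, leaving out replicates 1 and 2, and the others used the 6 arrays of both groups. The scripts were tested on simulated data. Python 3.11.15, pandas 2.3.3, numpy 2.4.6 and matplotlib 3.10.9 made tables and figures. The MAS5 version was not given.

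The members and lists were chosen with earlier results of these data known. The rule named the 12 members with the widest difference under watering, the 6 kept with the highest and the 6 lost with the lowest difference on replicate 3, up to 3 members of each keyword list, 3 probe sets on either side of the limit under watering and members the paper's text names. Other members are named, with values seen, to account for the rest. Probe set names are printed without the point after the prefix. Annotations came from the supplementary tables, the first table being used where several differ. The probe table paired 756 probe sets with gene numbers, 4 of them members. Columns of no mapped sample numbered 0. Alternatives were other floors and normalizations, a filter on dim probe sets, a trended prior, no fold minimum, a replicate block, 12 arrays in one fit, the methods' t-test, other limits of the rule and leaving out each array.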

Additional observations from a re-analysis of the deposited data

Results flagged for a closer look

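In 5 of the members named above, the order of droughted and watered arrays was opposite in the genotypes. All 3 droughted arrays lay below all 3 watered arrays in Vagad, and all 3 lay above all 3 in RAHS-14. Among all probe sets 1.1% did. Each order was commoner among probe sets with a mean of at least 64 in watered Vagad. There the order in Vagad held for 18.2%, against 9.16% of all, and that in RAHS-14 for 26.3%, against 16.9%. The share of those probe sets with both orders was not counted. The osmotin-like protein Ghi10646.1.S1_s_at had a mean log2 difference of droughted from watered Vagad of -4.27, against 0.57 in RAHS-14. The endochitinase Ghi6521.1.S1_at had -3.33, against 0.28, the unknown protein GhiAffx43814.1.S1_at -2.10, against 0.48, the terpene synthase GhiAffx7956.1.S1_at -2.15, against 0.45, and the unknown protein GhiAffx22793.1.S1_s_at -1.65, against 0.73. These Vagad means include replicates 1 and 2, which stood apart from the other arrays. None of the 5 was called by limma for drought with all 3 arrays of Vagad, or for drought in RAHS-14. The difference between the genotypes was not tested, watered Vagad was chosen high, and the order in RAHS-14 is bounded by the rule.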

How the results depend on the processing

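The number of members stayed within 1.5 times 68 under other floors, quantile normalization, median centring (84) and a drought limit of 0.5, and was 152 at a difference of at least 1 and 40 at 2. Without 1 array it ranged between 64 and 70. The kept members numbered 13 at a limit of 1.5 in place of 1, 8 of 32 when only members with a watered RAHS-14 mean of at least 64 were counted, a setting chosen after seeing the data, and 17 to 22 without 1 array. Judged on replicate 1 or 2 of droughted Vagad, also chosen after seeing the data, 14 or 16 were counted, of which 6 or 4 were among the 20. Calls of members higher in droughted Vagad than in droughted RAHS-14, 0 as reported, were 9 with 12 arrays in one fit (0.308% of all probe sets), 12 by the methods' t-test at an unadjusted p (3.08%) and 1 after adjustment, and 0 to 24 without 1 array, the 24 being without replicate 3 of droughted Vagad, where 29.6% of all probe sets were called higher. Calls lower than in watered Vagad, 0 as reported, were 12 (0.866%), 18 (1.83%) and 0 under the same settings and 0 to 17 without 1 array, the 17 again without replicate 3 (8.36%). For replicate 3 alone, 19 members called higher than droughted RAHS-14 became 10 and 43 called lower than watered Vagad became 25 when only the 38 members above the median mean were tested, which tests fewer members, and without 1 array these counts ranged between 16 and 19 and between 39 and 47. With the replicate number as a block they were 16 and 38, and 0 in both comparisons of all 3 arrays. The numbers did not pair the samples: deviations of same-numbered arrays from their group means correlated at -0.0307 to 0.047. Of 39 named members, 36 kept their call, or lack of one, on replicate 3 under quantile normalization and 38 under median centring. Gra1930.1.A1_s_at lost its call in both, at -0.89 and -0.99, RD19 at 0.96 and GhiAffx19570.1.S1_at gained one at -1.04 under quantile normalization. The cause of these moves was not tested. Values near the floor of 16 limit the folds of faint members, and 1 array of droughted Vagad carries the kept and lost split.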
